A study of Mus musculus with 12 samples.

Results

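Bone morphogenetic protein (BMP) signalling genes were examined in the scars of mice that did or did not carry Tem1 and whose wounds were or were not stretched. The genes were 4 BMP ligands (Bmp2, Bmp4, Bmp6 and Bmp7), 2 BMP receptors (Bmpr1a and Bmpr2), 2 secreted BMP antagonists (Nog, which encodes noggin, and Grem1, which encodes gremlin 1) and 2 Id genes (Id1 and Id3). They were chosen by name, with earlier results of these data known, and were taken from the deposited tables by gene symbol. All 10 symbols were among the 35976 genes listed, and all 10 passed the filter on low counts that left 18853 genes for testing.

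Scars of 4 groups were sequenced, with 3 male mice in each: the sham and traction groups of Tem1WT/WT mice and the sham and traction groups of Tem1lacZ/lacZ mice. The mice were 8 to 12 weeks old, and all of them had hair removed from the back, a 1.5-cm wound in the back skin and a plastic device placed on the wound after 6 days. In the traction groups the device was lengthened by 1 mm/day to a total elongation of 8 mm, and it was left at its length in the sham groups. In Tem1lacZ/lacZ mice both copies of the 1 exon of Tem1 carry the lacZ reporter in its place, so the deletion is in the whole animal and not in 1 cell type, and the line had been crossed to C57BL/6J mice for 10 generations. One piece of each bisected scar, a mixture of skin, hair follicle, vessel, muscle and immune cells, gave 1 library. In such bulk samples, fewer cells of a type and less RNA per cell cannot be told apart.

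The libraries held 41536788 to 64644293 counts on genes. The gene Tem1, listed as Cd248, had 3883 to 16413 counts in the libraries of Tem1WT/WT mice and 0 to 13 in those of Tem1lacZ/lacZ mice, so that all 12 libraries matched the genotype in their labels. Whether a scar was stretched was not checked this way. Markers of fibroblasts, vessels, hair follicles, keratinocytes, muscle, fat, neutrophils and macrophages were detected in every library, and no marker was at 0 in any of them. Replicate 1 of the Tem1WT/WT traction group stood apart. Its 6 neutrophil markers summed to 6792 CPM (counts after every library is brought to the same size by the TMM method), against 62.0 to 609 CPM in the 11 other libraries. Fold changes that rest on it are therefore given with and without it.

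BMPs are secreted ligands of the transforming growth factor β family. They bind pairs of type I receptors (such as the product of Bmpr1a) and type II receptors (such as the product of Bmpr2), which phosphorylate Smad1, Smad5 and Smad9. These enter the nucleus with Smad4 and switch on direct targets, among which the Id genes, encoding inhibitors of basic helix-loop-helix factors, are widely used as a readout. Noggin and gremlin bind the ligands outside the cell and keep them from the receptors. In skin, BMP signalling is known for its part in hair shaft differentiation and in holding hair follicle stem cells at rest, and noggin for releasing that hold.

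Upstream sequence is shown for Bmp4, the one gene of the 10 that passed the test in any comparison, and for Grem1, whose fold changes in the comparisons that use the Tem1WT/WT traction group rested on a single library of it. Promoter entries of RefSeq (mouse build GRCm38.p6) matched 6 of the 10 genes. Each sequence is the 250 bases before the annotated start, 5′ to 3′ on the strand of the gene, and capitals mark matches on either strand to 3 short words, none of which overlap here: GGCGCC and CAGAC, which are known as binding words of Smad proteins, and GGGCGG, the GC box.
Bmp4, GRCm38 chr14:46390670-46390919, minus strand: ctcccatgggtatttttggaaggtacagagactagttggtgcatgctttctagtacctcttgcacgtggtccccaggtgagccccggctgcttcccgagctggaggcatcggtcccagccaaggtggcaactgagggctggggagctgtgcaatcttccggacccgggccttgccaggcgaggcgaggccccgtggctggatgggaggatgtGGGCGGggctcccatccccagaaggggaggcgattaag
Grem1, GRCm38 chr2:113758649-113758898, minus strand: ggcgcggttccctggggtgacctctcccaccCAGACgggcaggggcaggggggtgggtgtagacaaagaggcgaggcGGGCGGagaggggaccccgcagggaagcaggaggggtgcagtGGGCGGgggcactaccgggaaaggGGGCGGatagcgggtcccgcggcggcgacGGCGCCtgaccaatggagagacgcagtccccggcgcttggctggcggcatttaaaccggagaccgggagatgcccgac

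The Bmp4 window held 1 GC box, 38 bases before the start, and neither Smad word. The Grem1 window held 3 GC boxes, 1 GGCGCC at 78 bases and 1 CAGAC at 219 bases before the start. Of the 32851 promoter windows of the same length, 9.59% held GGCGCC, 42.2% held CAGAC and 32.7% held GGGCGG. These matches describe the letters only.

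With traction in Tem1WT/WT mice, Bmp4 fell to 0.356 of its sham level, a change of −1.49 on the log2 scale (standard error, SE, 0.36, adjusted p = 0.0367 in edgeR's quasi-likelihood test). It was the 1 gene of the 10 that passed the test, where 9.15% of all genes tested passed, so the share among the 10 was close to that background. The study names Bmp4 for these libraries, so its call is not independent evidence of its direction. Bmp2 and Bmp7 were also lower with traction in every library and did not pass (log2 fold changes of −0.79 and −0.59, adjusted p = 0.0721 and 0.0555). The receptors, antagonists and Id genes did not pass either. Of the 10 genes, 7 had log2 fold changes below 0, and the median of the 10 was −0.22, beside −0.01 over all genes tested.

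**Figure D1:**
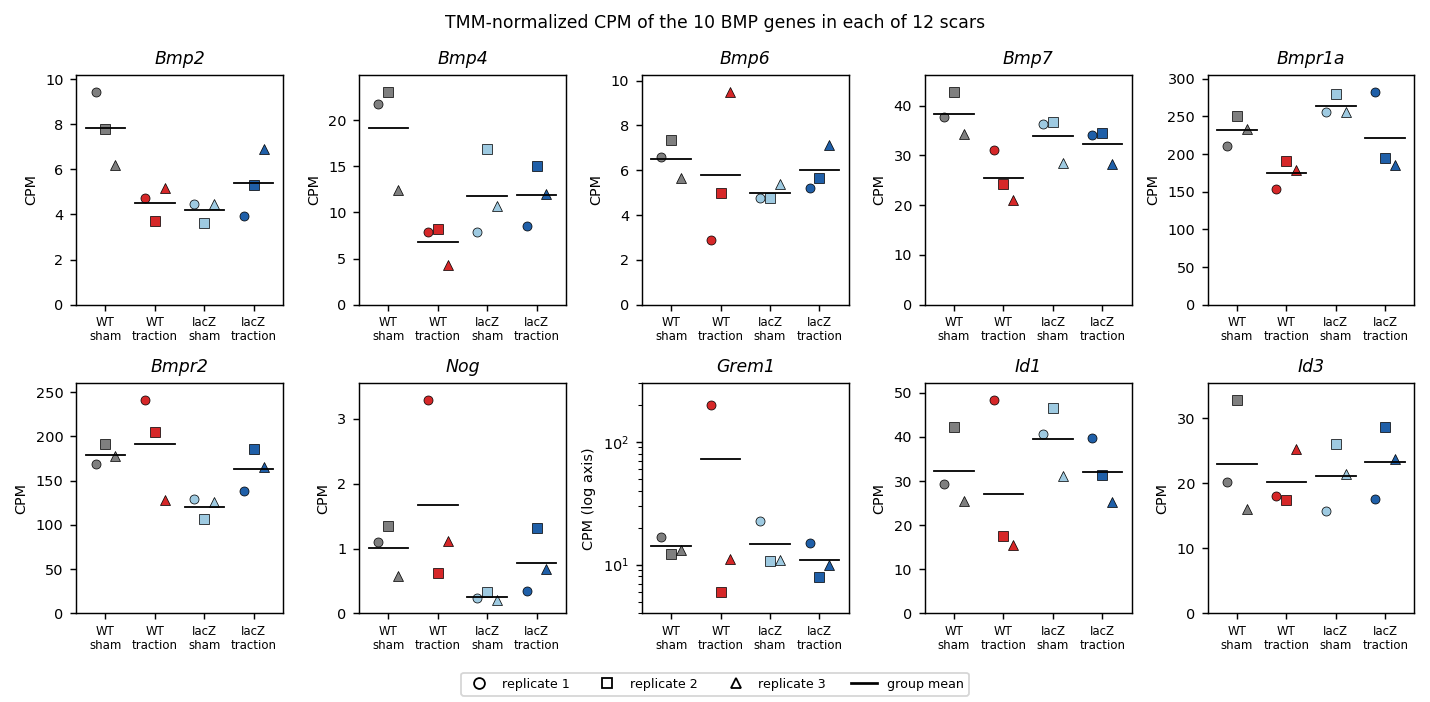
TMM-normalized CPM (vertical axes, with a log axis for Grem1) of the 10 BMP genes in the 4 groups of scars, with 1 symbol per mouse and the group mean as a line. The 3 stretched Tem1WT/WT scars lie between 4.33 and 8.19 CPM for Bmp4, all below the sham scars of that genotype, and 1 stretched Tem1WT/WT scar lies at 200.6 CPM for Grem1.

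Levels between genes were compared as CPM per kilobase of exon, using the union of exons in GENCODE vM21. By the median of the 12 libraries, the order was Bmpr1a (34.99), Id1 (26.9), Id3 (11.6), Bmpr2 (9.29), Bmp7 (8.51), Bmp4 (5.05), Grem1 (2.81), Bmp6 (1.41), Bmp2 (1.39) and Nog (0.383). The ranges over libraries of neighbours in this order overlapped in each of the 9 steps, so the order describes medians. Bmp6 and Bmp2 differed by less than their spread. Nog had the fewest reads, 10 to 138 counts per library,, so counting error weighs most on its level, while Grem1 had the largest SE of the 10 in each of the 5 contrasts below.

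Bmp4 (Entrez 12159, chr14:46383520-46390669, minus strand, GRCm38) encodes a ligand made in skin by the dermal papilla and the hair matrix. In Tem1WT/WT mice it was at 21.8, 23.1 and 12.4 CPM in sham replicates 1 to 3 and at 7.90, 8.19 and 4.33 CPM with traction, from 211 to 1593 counts. The Tem1lacZ/lacZ scars were at 7.85, 16.9 and 10.7 CPM in the sham group and at 8.58, 15.0 and 11.97 CPM with traction. The groups were apart in Tem1WT/WT mice and overlapped in Tem1lacZ/lacZ mice. Group means were 19.1 ± 5.81 and 6.81 ± 2.15 CPM in Tem1WT/WT mice and 11.8 ± 4.63 and 11.8 ± 3.21 CPM in Tem1lacZ/lacZ mice (SD, n = 3).

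The call of Bmp4 with traction in Tem1WT/WT mice was not stable. Its log2 fold change kept its sign in all 19 alternative analyses, between −1.72 and −1.24, and it passed in 11 of them, with adjusted p from 0.00206 to 0.133. It no longer passed without sham replicate 1 (−1.40, adjusted p = 0.133), sham replicate 2 (−1.31, adjusted p = 0.107), traction replicate 1 (−1.62, adjusted p = 0.0605) or traction replicate 3 (−1.24, adjusted p = 0.0871) of the Tem1WT/WT mice, nor without replicate 3 of the Tem1lacZ/lacZ sham group (adjusted p = 0.0587) or traction group (adjusted p = 0.0523), nor in limma-voom (−1.39, adjusted p = 0.0701) or with only the 6 libraries compared (−1.49, adjusted p = 0.0851). Without sham replicate 1 or 2 of the Tem1WT/WT mice, 0 of all genes tested passed in edgeR, with 4229 and 4847 at an unadjusted p under 0.05.

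Hair markers, some of which the study names for these libraries, moved with Bmp4. The summed level of 11 hair shaft and inner root sheath genes was 16372 to 30081 CPM in Tem1WT/WT sham scars and 4352 to 7970 CPM with traction. The median of their log2 fold changes was −1.98. In edgeR 4 of the 11 were called, all lower, where 3.54% of all genes were called lower. DESeq2 called 11 lower, beside 1813 of all 18853 genes, and limma-voom 1, beside 127. In the Tem1lacZ/lacZ sham group the sum was 4269, 23341 and 13223 CPM in replicates 1 to 3, the same order of the mice as for Bmp4, and the order was also the same within both Tem1WT/WT groups. In the Tem1lacZ/lacZ traction group it was 15141, 11904 and 8434 CPM, and the order differed from that of Bmp4. The 6 dermal papilla markers summed to 46.3 to 95.4 CPM in sham scars and to 99.4 to 227 CPM with traction of Tem1WT/WT mice. The median of their log2 fold changes was −1.16, so sum and median differ in sign. Of these 6 markers, 0 were called in edgeR and limma-voom. In DESeq2, where 2234 of all 18853 genes were called higher and 1813 lower, 3 of these markers were called (1 higher and 2 lower). Their part in the change of Bmp4 was not tested. On 3.96% of its exon bases Bmp4 overlaps a gene on the opposite strand, Gm15217, and the strand setting of the counting is not given in the sources used here.

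**Figure D2:**
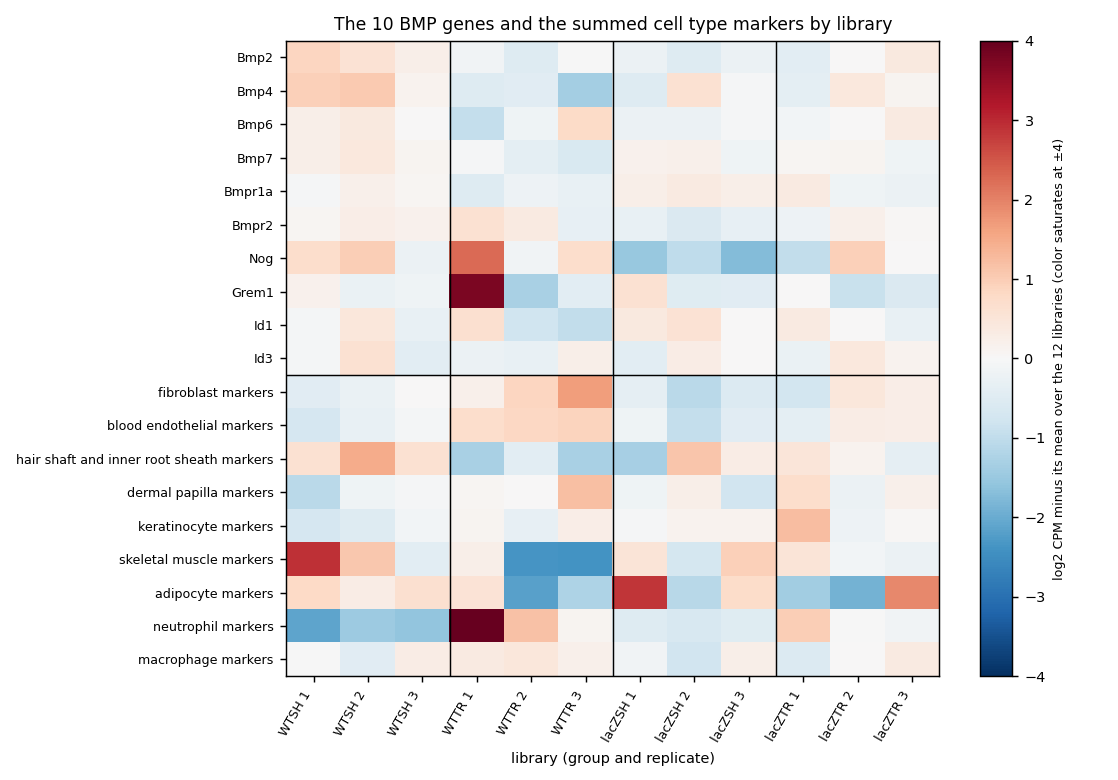
Log2 CPM of the 10 genes and of the summed markers of 9 cell types, each minus its own mean over the 12 libraries (color), by library in columns and gene or marker list in rows. Replicate 1 of the Tem1WT/WT traction group (WTTR 1) has the highest neutrophil sum, 6792 CPM, and the highest Grem1 and Nog of the 12 libraries.

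Bmp2, a ligand that with Bmp4 acts on hair follicles and bone, was at 9.44, 7.81 and 6.18 CPM in Tem1WT/WT sham scars and at 4.71, 3.69 and 5.18 CPM with traction. Without Tem1 it was at 4.45, 3.63 and 4.44 CPM in sham scars and at 3.92, 5.32 and 6.90 CPM with traction. The Tem1WT/WT sham group was thus above each of the libraries of the Tem1WT/WT traction and Tem1lacZ/lacZ sham groups. The log2 fold change with traction was −0.79 in Tem1WT/WT mice (SE 0.26, adjusted p = 0.0721) and 0.37 in Tem1lacZ/lacZ mice (SE 0.26, adjusted p = 0.697).

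Bmp7, which is made in the epidermis and the dermal papilla, was at 37.8, 42.8 and 34.4 CPM in Tem1WT/WT sham scars and at 31.1, 24.4 and 21.0 CPM with traction. Tem1lacZ/lacZ scars had 36.3, 36.7 and 28.6 CPM in the sham group and 34.0, 34.5 and 28.4 CPM with traction. Only the Tem1WT/WT groups were apart. The log2 fold change was −0.59 in Tem1WT/WT mice (SE 0.17, adjusted p = 0.0555) and −0.07 in Tem1lacZ/lacZ mice (SE 0.17, adjusted p = 0.929). Bmp2 and Bmp7 passed in Tem1WT/WT mice with upper quartile normalization and in DESeq2, where 1673 and 4047 of all 18853 genes passed.

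Bmp6, a ligand known for the control of iron through hepcidin, was at 6.60, 7.34 and 5.63 CPM in Tem1WT/WT sham scars and at 2.88, 4.99 and 9.51 CPM with traction. Its level without Tem1 was 4.78, 4.75 and 5.37 CPM in sham scars and 5.20, 5.66 and 7.13 CPM with traction. The stretched Tem1WT/WT scars held both the lowest and the highest level of the 12, and their SD, 3.39 CPM around a mean of 5.79 CPM, was larger than any difference between group means. The log2 fold change of −0.17 (SE 0.35, adjusted p = 0.775) became 0.13 without replicate 1 of that group. Bmp6 shares 5.74% of its exon bases with Txndc5 on the opposite strand.

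Bmpr1a (chr14:34410734-34503341, minus strand), a type I receptor for the ligands above, had the highest median level per kilobase of the 10 genes. It was at 211, 251 and 233 CPM in Tem1WT/WT sham scars and at 153, 191 and 179 CPM with traction. Without Tem1 it was at 256, 279 and 256 CPM in sham scars and at 283, 195 and 186 CPM with traction. The stretched Tem1WT/WT scars were all below their shams and the Tem1lacZ/lacZ groups overlapped, with log2 fold changes of −0.41 (SE 0.18, adjusted p = 0.141) and −0.25 (SE 0.18, adjusted p = 0.697). On 4.57% of its exon bases Bmpr1a overlaps the antisense gene Gm17110.

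Bmpr2 (chr1:59763400-59879014, plus strand), the type II receptor that phosphorylates type I receptors once a ligand is bound, was at 169, 191 and 178 CPM in Tem1WT/WT sham scars and at 241, 205 and 128 CPM with traction. The Tem1lacZ/lacZ values were 129, 107 and 126 CPM in sham scars and 139, 185 and 165 CPM with traction. Its direction in Tem1WT/WT mice could not be told, since the stretched scars lay on both sides of the shams (log2 fold change 0.09, SE 0.21, adjusted p = 0.803, and −0.03 with upper quartile normalization, where the median of all genes was −0.12). Without replicate 1 of the traction group it was −0.12 (adjusted p = 0.744). In Tem1lacZ/lacZ mice each stretched scar was above each sham and the gene did not pass (0.44, SE 0.21, adjusted p = 0.622).

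Grem1 (Entrez 23892, chr2:113746164-113758646, minus strand), an antagonist of Bmp2 and Bmp4 secreted by fibroblasts, was at 16.7, 12.3 and 13.1 CPM in Tem1WT/WT sham scars and at 200.6, 6.03 and 11.05 CPM with traction. The Tem1lacZ/lacZ values were 22.7, 10.6 and 10.8 CPM in sham scars and 14.9, 7.93 and 9.94 CPM with traction. One library, replicate 1 of the Tem1WT/WT traction group with 8433 counts, was above all others, and the other two of its group were below every sham of their genotype. The log2 fold change with traction in Tem1WT/WT mice was 2.37 (SE 1.02, adjusted p = 0.141). It was −0.74 (SE 0.40, adjusted p = 0.257) without that library and 2.93 (adjusted p = 0.0434) without replicate 2 of the group. The same library had a neutrophil marker sum of 6792 CPM, the largest of the 12, and its fibroblast marker sum, 19780 CPM, was the lowest of its group. Their part in the level of Grem1 was not tested.

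**Figure D3:**
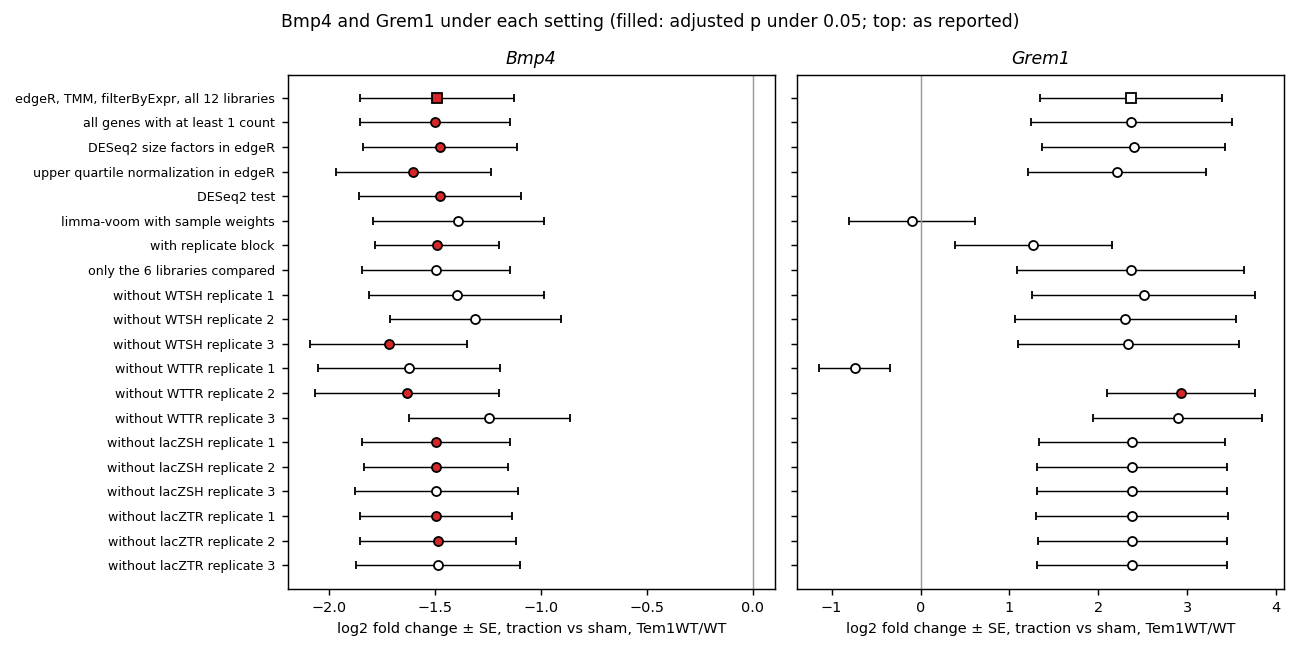
Log2 fold changes with traction in Tem1WT/WT mice (horizontal axis, ± standard error) of Bmp4 and Grem1 under each analysis in rows, with filled symbols where the adjusted p was under 0.05. Bmp4 stays between −1.72 and −1.24, whereas Grem1 is −0.74 without replicate 1 of the Tem1WT/WT traction group (WTTR) and −0.09 in limma-voom, which weights samples by their variance.

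Nog was at 1.11, 1.35 and 0.573 CPM in Tem1WT/WT sham scars and at 3.28, 0.618 and 1.11 CPM with traction. Without Tem1 it was at 0.238, 0.332 and 0.202 CPM in sham scars, from 10 to 14 counts per library, and at 0.345, 1.32 and 0.679 CPM with traction. The Tem1lacZ/lacZ shams were below each of the other 9 libraries. Replicate 1 of the Tem1WT/WT traction group was the highest library for Nog as for Grem1. The log2 fold change with traction was 0.72 in Tem1WT/WT mice (SE 0.63, adjusted p = 0.461), which became −0.25 without that library, and 1.60 in Tem1lacZ/lacZ mice (SE 0.68, adjusted p = 0.600).

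Id1 (chr2:152736251-152737410, plus strand), the Id gene most often read as a BMP target in vessels and epithelium, was at 29.4, 42.3 and 25.4 CPM in Tem1WT/WT sham scars and at 48.3, 17.6 and 15.5 CPM with traction. The Tem1lacZ/lacZ scars were at 40.7, 46.6 and 31.1 CPM in the sham group and at 39.7, 31.3 and 25.1 CPM with traction. Replicate 1 of the Tem1WT/WT traction group was the highest and the other two of that group the lowest of the 12 libraries. The log2 fold change in Tem1WT/WT mice was −0.26 (SE 0.40, adjusted p = 0.696) with that library and −0.98 (SE 0.27, adjusted p = 0.0638) without it.

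Id3 was at 20.2, 32.7 and 16.0 CPM in Tem1WT/WT sham scars and at 17.99, 17.4 and 25.3 CPM with traction. Its Tem1lacZ/lacZ levels were 15.8, 26.1 and 21.5 CPM in sham scars and 17.5, 28.5 and 23.7 CPM with traction. All 4 groups overlapped, and the log2 fold changes were −0.18 (SE 0.29, adjusted p = 0.705) in Tem1WT/WT and 0.14 (SE 0.29, adjusted p = 0.906) in Tem1lacZ/lacZ mice.

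Among the Tem1WT/WT scars, 4 of the 10 genes had every stretched scar below every sham (Bmp2, Bmp4, Bmp7 and Bmpr1a) and 0 had every stretched scar above. Over all genes tested, 18.0% were lower and 17.7% higher without overlap. In this comparison 5 of the 10 had an unadjusted p under 0.05 (Bmp2, Bmp4, Bmp7, Bmpr1a and Grem1), beside 31.4% of all genes.

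Traction in Tem1lacZ/lacZ mice asked whether the same stretch moved the genes without Tem1. Of the 10 genes, 0 passed in edgeR, in DESeq2 and in limma-voom, and at an unadjusted p under 0.05 there was 1 (Nog) in edgeR, 1 in DESeq2 and 4 in limma-voom. In edgeR 0% of all genes tested passed and 8.12% had an unadjusted p under 0.05. In DESeq2 1847 and in limma-voom 5312 of the 18853 genes had an unadjusted p under 0.05. The log2 fold changes lay between −0.43 (Grem1) and 1.60 (Nog) with a median of 0.07, beside −0.01 over all genes. Bmpr2 and Nog had every stretched scar above every sham, where 6.77% of all genes did. Bmp4, which had fallen with traction in Tem1WT/WT mice, had a log2 fold change of 0.00 (SE 0.36, adjusted p = 0.999).

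**Figure D4:**
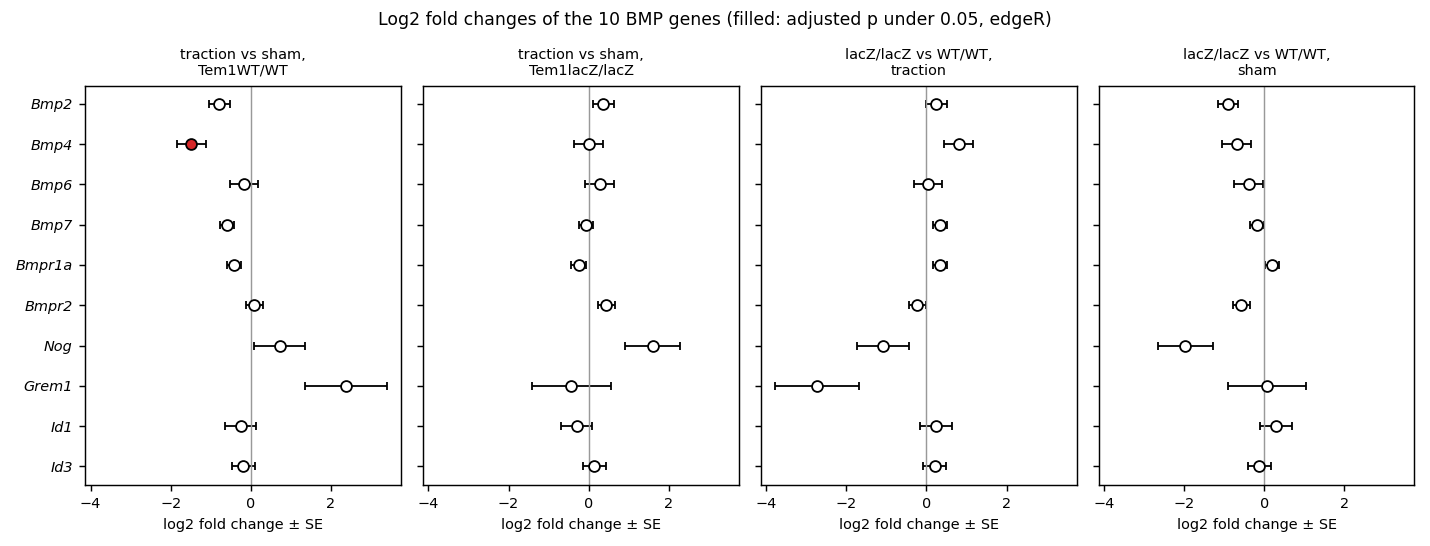
Log2 fold changes ± SE (horizontal axes) of the 10 genes (rows) in 4 comparisons from edgeR, filled where the adjusted p was under 0.05. The filled symbol is Bmp4 with traction in Tem1WT/WT mice, at −1.49, and Grem1 and Nog have the longest error bars.

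The test of whether traction acted differently in mice with and without Tem1 is the interaction. Bmp2 (1.15, SE 0.36) and Bmp4 (1.49, SE 0.51) had the smallest unadjusted p, and both had an adjusted p of 0.548. Of the 10 genes 0 passed in edgeR, DESeq2 and limma-voom, with 2, 2 and 3 at an unadjusted p under 0.05. In edgeR 0% of all genes tested passed and 8.91% had an unadjusted p under 0.05. In DESeq2 2062 and in limma-voom 1925 of the 18853 genes had an unadjusted p under 0.05. A different response of Bmp4 or Bmp2 with and without Tem1 was thus not shown at the threshold. The study differs: it lists Bmp4 in gene clusters selected on an interaction at an adjusted p under 0.05. It reports that traction lowered these clusters in Tem1WT/WT mice and that Tem1 deletion abolished this. Here the interaction of Bmp4 had an adjusted p of 0.2325 in DESeq2. Without replicate 1 of the Tem1WT/WT traction group, Bmp7 (0.74) and Nog (1.89) joined them at an unadjusted p under 0.05, and the adjusted p of the 10 were 0.558 or more.

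Between genotypes within the traction groups, 0 of the 10 genes passed in edgeR, DESeq2 and limma-voom, while 0.106% of all genes passed in edgeR. At an unadjusted p under 0.05 were 26.1% of all genes in edgeR, 5387 of 18853 in DESeq2 and 3125 in limma-voom. Of the 10 genes there were 2, 1 and 0. Bmp4 was higher in each stretched Tem1lacZ/lacZ scar than in each stretched Tem1WT/WT scar, by 0.80 on the log2 scale (SE 0.36, adjusted p = 0.187), and it was the 1 gene of the 10 to be so, where 12.9% of all genes were. Grem1 was lower by −2.73 (SE 1.04, adjusted p = 0.139) with replicate 1 of the Tem1WT/WT group and higher by 0.38 (SE 0.40, adjusted p = 0.581) without it. Without replicate 2 of that group Grem1 was at −3.28 and passed (adjusted p = 0.0464). Id1 was at 0.24 (adjusted p = 0.728) with replicate 1 and at 0.98 (SE 0.27, adjusted p = 0.168) without it. These fold changes use the same Tem1WT/WT traction libraries as the traction comparison above.

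Between genotypes in sham scars, 0 of the 10 genes passed in edgeR, DESeq2 and limma-voom, while 0.0106% of all genes passed in edgeR. At an unadjusted p under 0.05 were 11.7% of all genes in edgeR, 2555 of 18853 in DESeq2 and 4378 in limma-voom. Of the 10 genes there were 3, 3 and 4. The 3 in edgeR were Bmp2 (log2 fold change −0.90, SE 0.26), Nog (−1.97, SE 0.68) and Bmpr2 (−0.57, SE 0.21), each lower in the Tem1lacZ/lacZ shams with an adjusted p of 0.409. Bmp2, Bmp6, Bmpr2 and Nog were lower and Bmpr1a was higher in each Tem1lacZ/lacZ sham than in each Tem1WT/WT sham, 5 of 10 genes without overlap, where 26.8% of all genes were apart. The summed neutrophil markers were 62.0 to 97.6 CPM in Tem1WT/WT shams and 172 to 191 CPM in Tem1lacZ/lacZ shams. Between these groups 0 of the 6 neutrophil markers were called in edgeR and 0 had an unadjusted p under 0.05. Their part in the differences of the BMP genes was not tested.

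A test over all 4 groups at once called 0 of the 10 genes in edgeR, with 7 at an unadjusted p under 0.05, while 10.9% of all genes passed and 32.5% had an unadjusted p under 0.05. The smallest adjusted p were those of Bmp4 (0.0759), Bmp2 (0.0888) and Nog (0.0892). DESeq2 called these 3, where it called 5377 of all 18853 genes. Limma-voom called Bmpr2, where it called 3730 of all genes.

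The rest of the pathway was read from a list of 56 other genes, of which 49 were tested. The 7 left out by the filter were the ligands Bmp8b, Bmp10, Gdf2 and Gdf7, the modulators Chrdl2 and Tll2, and Hamp, the liver target that encodes hepcidin. With traction in Tem1WT/WT mice 6 of the 49 rose and 2 fell, where 5.61% and 3.54% of all genes did, and the median log2 fold change of the list was −0.09. Those that rose were 3 receptors or co-receptors and 3 secreted modulators. In the other 4 contrasts 0 of the 49 passed in edgeR. At an unadjusted p under 0.05 there were 6 with traction in Tem1lacZ/lacZ mice, beside 8.12% of all genes. There were 17 between genotypes with traction, beside 26.1% of all genes, and 8 between shams, beside 11.7%. In the interaction there were 10, beside 8.91% of all genes. DESeq2 called 10 between genotypes with traction, where it called 2334 of all 18853 genes, and 0 in the other 3. Limma-voom called 2 with traction in Tem1lacZ/lacZ mice, where it called 435 of all genes, and 0 in the other 3. In edgeR 45 of the 49 log2 fold changes between shams were below 0, with a median of −0.39, beside −0.01 over all genes.

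**Figure D5:**
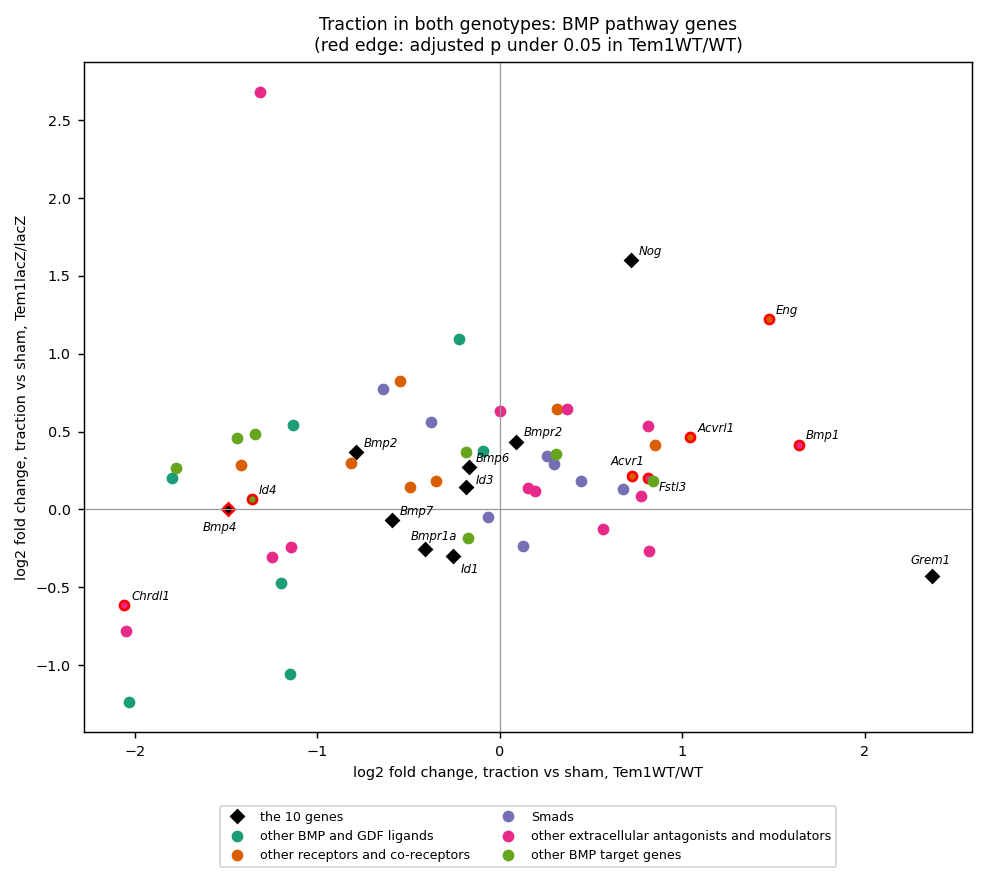
Log2 fold changes with traction in Tem1WT/WT (horizontal axis) and Tem1lacZ/lacZ mice (vertical axis) of the 10 genes (diamonds) and of 48 other BMP pathway genes (circles, colored by role). Red edges mark an adjusted p under 0.05 in Tem1WT/WT mice, on 5 circles to the right of 0 and, with Bmp4, on 3 symbols to the left.

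Among receptors and co-receptors, 3 of 10 rose with traction in Tem1WT/WT mice and 0 fell in edgeR, beside 5.61% and 3.54% of all genes. DESeq2 called 4 higher and 1 lower, beside 2234 and 1813 of all 18853 genes. Limma-voom called 2 and 0, beside 621 and 127. Eng, which encodes the endothelial co-receptor endoglin, was at 41.4, 52.8 and 56.9 CPM in Tem1WT/WT sham scars and at 167, 91.6 and 160.4 CPM with traction (log2 fold change 1.47, SE 0.30, adjusted p = 0.0303). Without Tem1 it was at 34.2, 28.5 and 38.2 CPM in shams and at 45.3, 92.7 and 97.3 CPM with traction, again without overlap (1.22, SE 0.30, adjusted p = 0.598). Acvrl1, which encodes the endothelial type I receptor ALK1, rose by 1.04 (SE 0.29, adjusted p = 0.0485), and Acvr1, the type I receptor ALK2, by 0.73 (SE 0.16, adjusted p = 0.0329). Without replicate 1 of the Tem1WT/WT traction group none of these 3 passed, with Eng at 1.30 (adjusted p = 0.0554), Acvrl1 at 0.85 (adjusted p = 0.123) and Acvr1 at 0.73 (adjusted p = 0.0556). Blood endothelial markers moved with them, from a sum of 298 to 452 CPM in Tem1WT/WT shams to 771 to 890 CPM with traction. In edgeR 4 of these 6 markers were called higher, beside 5.61% of all genes, and their part was not tested. Acvr2b, a type II receptor, was at −0.81 (adjusted p = 0.0643) in Tem1WT/WT mice and had the smallest unadjusted interaction p of the receptors (1.11, SE 0.36, adjusted p = 0.548).

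Among the 16 antagonists and modulators tested, 3 rose and 1 fell with traction in Tem1WT/WT mice in edgeR, where 5.61% and 3.54% of all genes did. Bmp1, which despite its name encodes a protease that trims procollagen and cleaves the antagonist chordin, was at 149, 166 and 223 CPM in Tem1WT/WT shams and at 492, 438 and 745 CPM with traction (1.64, SE 0.28, adjusted p = 0.0252).

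Without Tem1, Bmp1 was at 159, 126 and 196 CPM in shams and at 158, 276 and 208 CPM with traction, and its interaction had the smallest unadjusted p of the modulators (−1.22, SE 0.39, adjusted p = 0.548). Fstl3, a follistatin-like binder of activins and some BMPs, rose in Tem1WT/WT mice by 0.81 (SE 0.21, adjusted p = 0.0398). Chrdl1, a chordin-like antagonist, fell from 33.1, 16.5 and 26.0 CPM to 6.45, 3.78 and 7.89 CPM (−2.06, SE 0.57, adjusted p = 0.0485). Without replicate 1 of the Tem1WT/WT traction group Fstl3 (0.67, adjusted p = 0.0954) and Chrdl1 (−2.13, adjusted p = 0.0910) no longer passed, whereas Bmp1 did (1.70, adjusted p = 0.0408). Fibroblast markers, whose sum went from 12765 to 17412 CPM in shams to 19780 to 54599 CPM with traction of Tem1WT/WT mice, moved in the same direction as Bmp1. In edgeR 1 of these 6 markers was called higher, beside 5.61% of all genes, and their part was not tested. Crim1, a membrane protein that holds BMPs at the cell, had the smallest unadjusted p of the modulators between sham groups (−0.62, SE 0.27, adjusted p = 0.424).

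The intracellular list (Smads with Smurf1 and Smurf2) gave 0 of 8 called with traction in Tem1WT/WT mice and 2 at an unadjusted p under 0.05 in edgeR. Of all genes 9.15% were called there and 31.4% had an unadjusted p under 0.05. DESeq2 called 2 of the 8, beside 4047 of all 18853 genes, and limma-voom 0, beside 748. Smurf1, a ubiquitin ligase that marks BMP Smads for removal, was at 0.68 (SE 0.19, adjusted p = 0.0508) and Smad4, the shared partner, at 0.45 (SE 0.14, adjusted p = 0.0643). Both passed in the test over all 4 groups (adjusted p = 0.0368 and 0.0393). Smad9 was at −1.10 in Tem1lacZ/lacZ against Tem1WT/WT shams (SE 0.43, adjusted p = 0.409), at 19 to 107 counts per library. Smad6, an inhibitory Smad that is itself a BMP target, was at 0.56 (adjusted p = 0.626) with traction in Tem1lacZ/lacZ mice.

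Among 8 other BMP target genes, 0 rose and 1 fell in edgeR with traction in Tem1WT/WT mice, beside 5.61% and 3.54% of all genes. DESeq2 called 1 higher and 3 lower, beside 2234 and 1813 of all 18853 genes, and limma-voom 0 and 0. The median log2 fold change of the 8 targets in edgeR was −0.76, beside −0.01 over all genes. Id4 was at 29.9, 46.7 and 32.9 CPM in Tem1WT/WT shams and at 6.78, 23.4 and 12.5 CPM with traction (−1.36, SE 0.37, adjusted p = 0.0474), and at −1.04 (adjusted p = 0.0772) without replicate 1 of the traction group. Without Tem1, Id4 was at 33.4, 36.0 and 28.4 CPM in shams and at 26.1, 40.9 and 35.3 CPM with traction (0.07, adjusted p = 0.970), and its interaction was 1.42 (adjusted p = 0.548). Id1 and Id3 did not pass in any of these comparisons.

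Dlx3 and Msx1, homeobox genes of the hair matrix, did not pass. Dlx3 was at 50.7, 158 and 65.5 CPM in Tem1WT/WT shams and at 26.5, 39.3 and 35.3 CPM with traction (−1.44, SE 0.45, adjusted p = 0.0639), with an interaction of 1.90 (adjusted p = 0.548). Msx1 had a log2 fold change between Tem1lacZ/lacZ and Tem1WT/WT shams of −1.56 (SE 0.56, adjusted p = 0.409). Sham replicate 2 of the Tem1WT/WT mice had the highest Dlx3, the highest Msx1 (9.46 CPM) and the highest summed hair markers (30081 CPM) of the 12 libraries. Atoh8, a target in vessels and liver, was at 0.35 (adjusted p = 0.678) with traction in Tem1lacZ/lacZ mice.

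Of the other ligands 7 of 11 were tested and 0 passed in any contrast in edgeR or limma-voom. DESeq2 called 1 lower with traction in Tem1WT/WT mice, where it called 1813 of all 18853 genes lower. In edgeR there was 1 at an unadjusted p under 0.05 with traction in Tem1WT/WT mice, beside 31.4% of all genes. All 7 log2 fold changes in that comparison were below 0, with a median of −1.15, whereas 50.6% of all genes were below 0. Bmp15, at 2 to 22 counts per library, was at 0.11 without replicate 1 of the Tem1WT/WT traction group, and the others stayed below 0. Gdf5 and Gdf6 also had few reads, 0 to 34 and 2 to 40 counts per library. Bmp8a had the smallest unadjusted p (−1.80, SE 0.68, adjusted p = 0.103), at 17 to 487 counts per library. Bmp3, a ligand that opposes other BMPs, was at −1.15 (adjusted p = 0.211) in Tem1WT/WT and −1.06 (adjusted p = 0.651) in Tem1lacZ/lacZ mice. The 7 ligands were also all below 0 in Tem1lacZ/lacZ against Tem1WT/WT shams, with a median of −0.59, beside −0.01 over all genes. That comparison uses the same Tem1WT/WT shams, so a fall of all 7 ligands was not particular to traction.

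The 8 calls of the other pathway genes depended on single libraries. Without sham replicate 1 or sham replicate 2 of the Tem1WT/WT mice 0 of the 8 passed, as for all genes. Of those named here, Bmp1 passed in 16 of 19 alternative analyses (adjusted p up to 0.116), Eng in 13 (up to 0.123), Acvr1 in 11 (up to 0.133), Chrdl1 in 7 (up to 0.151), Id4 in 6 (up to 0.132), and Acvrl1 and Fstl3 in 4 each (up to 0.144 and 0.133). The signs of their log2 fold changes were kept in all 19. In the test over all 4 groups 11 of the 49 passed, beside 10.9% of all genes, and 0 to 12 passed without 1 library. Among the 11 were Bmp1, Eng, Nbl1, Fstl3, Acvrl1, Smurf1, Acvr1, Smad4, Bmpr1b and Tll1. Bmpr1b, a second type I receptor, was at 0.85 (adjusted p = 0.0510), Nbl1, an antagonist of the gremlin family, at 0.77 (adjusted p = 0.0750) and Tll1, a relative of Bmp1, at 0.81 (adjusted p = 0.0562) with traction in Tem1WT/WT mice. Without replicate 1 of the Tem1WT/WT traction group Bmpr1b passed (1.03, adjusted p = 0.0460). Nbl1 (0.63, adjusted p = 0.184) and Tll1 (0.81, adjusted p = 0.0948) did not.

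Over the 12 libraries, Bmp4 varied most like Bmp7 among the other 9 genes (Pearson r of log2 CPM 0.789), and Bmp7 was close to Id1 (0.781). Nog varied with Bmpr2 (0.754) and against Bmpr1a (−0.767), and both receptors varied against each other (−0.641). Replicate 1 of the Tem1WT/WT traction group had the highest Nog (3.28 CPM), the highest Bmpr2 (241 CPM) and the lowest Bmpr1a (153 CPM) of the 12 libraries. The correlations between the 10 genes were not computed without it. These libraries share the 4 groups and the marker differences above, so the values describe this set of scars and carry no test. Over the 13646 genes whose log2 CPM averaged 1 or more, those among the most like each gene were Gm973 (0.937) and Morn4 (0.927) for Bmp4, Zfp109 (0.926) and Enpp4 (0.906) for Bmp2, Irs1 (0.919) and Tril (0.914) for Bmp6, Vdr (0.949) and Map7 (0.946) for Bmp7, Dimt1 (0.972) and Osgep (0.966) for Bmpr1a, and Kmt2e (0.969) for Bmpr2.

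For Nog they were Mybbp1a (0.948) and Def6 (0.942), for Id1 Spint1 (0.931) and Crb3 (0.917), and for Id3 Tiam2 (0.848) and Scrn2 (0.844), the lowest of the 10. The values of Grem1 with Dusp5 (0.961) and Rabgef1 (0.960) were 0.704 and 0.676 without replicate 1 of the Tem1WT/WT traction group, so they rested in large part on that library.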

How the data were processed

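RNA of 12 mouse scars, 3 mice in each of 4 groups given by the sample labels, was sequenced from stranded poly(A) libraries as 150-bp paired-end reads. The authors trimmed reads with fastp 0.20.0, aligned them to GRCm38 with HISAT2 2.1.0 and deposited whole-number read counts per gene from featureCounts 2.0.0, without normalization. The annotation and the strand setting are not given in the sources used here, and no label names a batch. The 10 genes and the other gene lists were chosen with earlier results of these data known, and the study names Bmp4 and Smad4 for these libraries. It also names some genes of the hair, blood endothelial, fibroblast and neutrophil marker lists. The directions of these lists are thus not independent evidence. So the members' counts are descriptions beside all genes.

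Low counts were removed with filterByExpr on the 4 groups, and TMM normalization and the fit were run in R 4.3.3 with edgeR 4.0.16 (robust quasi-likelihood, all 12 libraries, with 8 residual degrees of freedom). All tests were two-sided and used Benjamini-Hochberg adjustment over 18853 genes and a threshold of 0.05. Library totals had a median of 48173798 counts and the common biological coefficient of variation was 34.2%. Counting error covers reads, not mice. No pair of libraries was a copy (chi-square per degree of freedom 90.4 or more within groups). The named genes were the 10, the other BMP pathway genes that passed or had the smallest p of their list in a contrast, the 2 genes most like each of the 10, and Cd248; 2 of these are not reported here. The alternatives kept every gene with a count, scaled by DESeq2 size factors, scaled by the upper quartile, or used the DESeq2 1.42.0 test, limma-voom (limma 3.58.1) with sample weights, a replicate block, the 6 libraries compared and leaving out each library. Entrez identifiers and promoters came from RefSeq, and exons from GENCODE vM21. Hjv is listed under its older symbol Hfe2, and Krt85 of the 12 hair markers was not used here. Scripts were tested on simulated data.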

Additional observations from a re-analysis of the deposited data

How the results depend on the processing

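With traction in Tem1WT/WT mice, the number of the 10 genes called was 1 as reported, 3 with upper quartile normalization and in DESeq2 (Bmp2, Bmp4 and Bmp7), 0 in limma-voom and with only the 6 libraries compared, and 0 to 2 without 1 library. Between genotypes with traction it was 0 to 1 without 1 library (Grem1 without replicate 2 of the Tem1WT/WT traction group). Over all 4 groups it was 0 as reported, 3 in DESeq2, 1 in limma-voom and 0 to 1 without 1 library (Grem1 without the same replicate, Bmpr1a without replicate 1 of the Tem1lacZ/lacZ traction group). Of 933 alternative values of log2 fold changes of the 10 genes in 5 contrasts, 884 kept their sign. The cause of the sign changes was not tested.

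Upper quartile normalization moved the median log2 fold change of all genes to −0.12 with traction in Tem1WT/WT mice and to 0.14 between genotypes with traction, and the calls in the former from 1057 higher and 668 lower to 734 higher and 939 lower. Under it Bmpr2 was at −0.026 with traction in Tem1WT/WT mice, Bmp4 at −0.044 with traction in Tem1lacZ/lacZ mice and Id1 at 0.048 in the interaction. In limma-voom Grem1 was at −0.092 with traction in Tem1WT/WT mice and at −0.10 between shams, Bmpr1a at −0.027 and Id1 at 0.34 in the interaction. With only the 6 libraries, Bmp4 was at −0.0067 with traction in Tem1lacZ/lacZ mice. That alternative could not be fitted for the interaction or the 4 groups. DESeq2 gave no adjusted p for Grem1, nor for Nog with traction in Tem1lacZ/lacZ mice and between shams.

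Same-numbered libraries came from different mice, and the correlations of their deviations from the group means were −0.324 to 0.250. Libraries of different numbers were not compared this way, so this range cannot tell whether the numbers mark a shared batch. A replicate block called 2 of the 10 genes with traction in Tem1WT/WT mice (Bmp4 and Bmp7) and 0 in the other comparisons, and put Grem1 at −0.12 between shams and Id1 at 0.051 in the interaction.

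Leaving out 1 library at a time, the log2 fold changes that changed sign ranged as follows. With traction in Tem1WT/WT mice Bmp6 was −0.73 to 0.13, Bmpr2 −0.12 to 0.32, Nog −0.25 to 1.13, Grem1 −0.74 to 2.93, Id1 −0.98 to 0.033 and Id3 −0.39 to 0.18. With traction in Tem1lacZ/lacZ mice Bmp4 was −0.21 to 0.38, Bmp7 −0.15 to 0.023, Grem1 −0.68 to 0.060 and Id3 −0.034 to 0.35. Between genotypes with traction Bmp6 was −0.24 to 0.62, Bmpr2 −0.44 to 0.0047, Grem1 −3.28 to 0.38 and Id1 −0.039 to 0.98. Between shams Grem1 was −0.42 to 0.24 and Id3 −0.32 to 0.25. In the interaction Bmpr1a was −0.0030 to 0.26, Grem1 −3.35 to 0.33, Id1 −0.31 to 0.71 and Id3 −0.048 to 0.55.

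Over all genes, edgeR called 1725 with traction in Tem1WT/WT mice, against 1011 with every gene that had a count, 4047 in DESeq2, 748 in limma-voom, 0 with only the 6 libraries and 0 to 2861 without 1 library, and of the 49 other pathway genes 8 against 4, 19, 4, 0 and 0 to 12. With traction in Tem1lacZ/lacZ mice the 0 genes became 28 in DESeq2, 435 in limma-voom and 0 to 73 without 1 library. Between genotypes with traction the 20 became 2334 in DESeq2, 0 with the 6 libraries and 3 to 1421 without 1 library, and between shams the 2 became 43 in DESeq2. The interaction went from 0 to 69 in DESeq2 and 0 to 31 without 1 library. Over the 4 groups the 2049 became 5377 in DESeq2, 3730 in limma-voom, 1235 with the replicate block and 29 to 3019 without 1 library.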
